A study of Atriplex lentiformis with 9 samples.

Results

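The plant cell wall genes described here are 88 entries of a root RNA-seq table from quailbush (Atriplex lentiformis (Torr.) S. Wats., a salt-tolerant shrub), out of 5164 entries in all. They were chosen by name alone, as the entries named after Arabidopsis cellulose synthases (CESA, 6 entries), cellulose synthase-like proteins (CSL, 11), galacturonosyltransferases (GAUT, 11), COBRA-like names (COB and COBL, 5), fasciclin-like arabinogalactan proteins (FLA, 6), expansins (EXP, 5), xyloglucan endotransglucosylase/hydrolases (XTH, 17), endoglucanases (GUN, 8), beta-xylosidases (BXL, 4), pectin methylesterases (PME, 10) and pectate lyases (PLY, 5). BXL7 was left out. COB22 met the name rule but may be named after a protein outside the COBRA family, and it stays in the counts below. Of the 88, 79 reached 10 normalised reads in at least 2 libraries and were tested among 4801 entries. The other 9 (COBL6, COBL9, FLA19, GAUTD, GUN5, GUN9, PLY11, PME11 and PME60) stayed at or below 18.1 normalised reads in every library.

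The plants had grown for 11 weeks in tailings of a mine into which compost was mixed at 10% (TC10), 15% (TC15) or 20% (TC20), and every group therefore grew in tailings, with no group in tailings-free soil. Expression was read in 8 libraries, each from 1 plant: TC10 plants 2 and 4, TC15 plants 2, 6 and 10, and TC20 plants 3, 5 and 9. The file titled TC10 plant 5 was identical, in all 4995 entries, to that of TC15 plant 6, whose name its header carries, and was left out. The 8 plants stood 58 and 51 cm tall in TC10, 89, 62 and 72 cm in TC15, and 82, 91 and 57 cm in TC20, and their roots held 491 and 637, 373, 565 and 1075, and 215, 277 and 174 ug/g zinc in the same order. Values below are normalised reads (deposited counts, already scaled by 1 factor for each library), listed within each group in the plant order just given. An entry stands for all quailbush transcripts matched to that Arabidopsis protein, so close paralogs within CESA, XTH, GAUT, EXP or PME are uncertain. The values are not per length, and levels are therefore compared between libraries and not between genes. The samples are bulk roots, in which fewer cells of a type and less RNA per cell cannot be told apart.

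A growing plant cell is held by a primary wall of cellulose microfibrils tied by xyloglucan and embedded in pectin. Cellulose is spun at the plasma membrane by complexes of CESA proteins, while the hemicelluloses and pectins are made in the Golgi by CSL and GAUT enzymes and secreted. Expansins and XTH enzymes let the network slip or be rejoined as the cell enlarges, pectin methylesterases and pectate lyases alter the pectin, and xylem vessels and fibres later lay down a secondary wall with CESA proteins of their own. In roots these processes accompany elongation, root hair growth and the building of water-conducting tissue.

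The libraries held 3030394 to 4752637 recovered reads and 4995 to 5055 listed entries. The wall entries together made up 2.17% (TC20 plant 5) to 4.46% (TC10 plant 2) of all normalised reads of a library. Among markers of root tissues, MYB36, a factor of the endodermis, had 380.6 to 852 normalised reads and SHR 186 to 438 in 7 libraries but 59.1 in TC10 plant 2, while SCR and the root cap factor SMB were low (at most 15.4 and 6.14). None of CASP1 to CASP5, ESB1 or the fixed root hair markers EXPA7, EXPA18, LRX1, RHD6 and RSL4 was listed. Of 8 entries matched by the name pattern for green tissue, CB60A, CB60B, CB60D and CB60E are calmodulin-binding proteins and no marker of it. The remaining 4 (CB4B, LHCA5, LHCA6 and PSAK) summed to 32.6 to 178 normalised reads, highest in TC10 plant 2.

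No wall entry passed an adjusted p of 0.05 with limma in any comparison, so the account that follows is of levels by plant, with the tests beside them. The wall entries varied more between plants than entries in general: the SD of log2(value + 1) over the 8 libraries had a median of 0.66 over the 79 wall entries, against 0.34 over all 4801, at a median level of 527 and 391 normalised reads. That difference was not tested, because the wall entries share libraries and pathways. The spread ran from 0.12 for GAUT1 to 1.71 for PME15.

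Groups that did not overlap were common at these sample sizes, and the wall entries had about as many as entries in general. In TC20 against TC10 the groups of 17 of 79 wall entries did not overlap (21.5%, against 18.5% of all tested entries). In TC20 against TC15 those of 9 did not (11.4%, against 12.9%), and in TC15 against TC10 those of 20 (25.3%, against 24.7%). Every statement below that groups did not overlap is to be read against these shares.

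**Figure D1:**
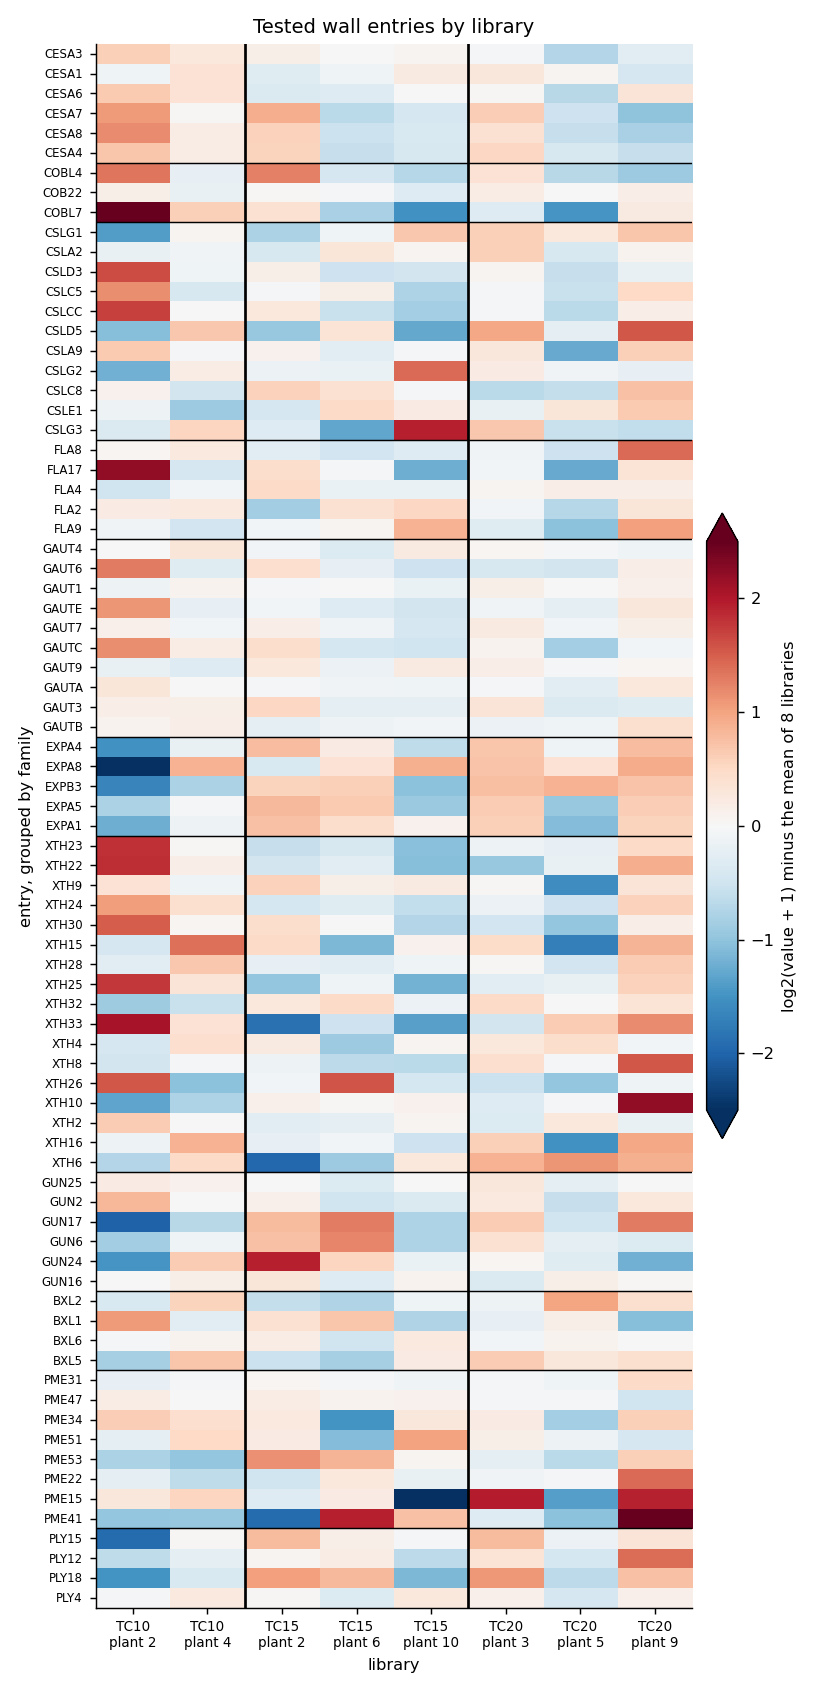
Each row is a tested wall entry, grouped by family and ordered by mean level within a family, and each column a library, from TC10 to TC20. Colour gives log2(value + 1) minus the mean of the 8 libraries, and black lines part families and treatments. TC10 plant 2 holds the highest value of 27 of the 79 entries, among them 5 of 6 CESA and 7 of 17 XTH entries, and the lowest value of 4 of 5 EXP entries.

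TC10 plant 2 stood apart in its number of highest values among the wall entries. It held the highest value of 27 of the 79 (34.2%), where it held that of 18.0% of all tested entries. It also held the lowest value of 15 (19.0%), against 18.0% of all. TC20 plant 5 held the lowest value of 19 (24.1%), against 9.75% of all. TC20 plant 9 came next with 17 highest values (21.5%, against 21.1% of all), TC15 plant 2 with 10 (12.7%, against 14.2%), and TC15 plant 6 had 2 (2.53%, against 10.3%). Without TC10 plant 2, TC20 plant 9 held 28 of the 79 highest values (35.4%, against 26.3% of all) and TC15 plant 2 21 (26.6%, against 18.8%). The median deviation of the wall entries from their own 8-library mean was -0.30 on the log2 scale in TC20 plant 5 and 0.31 in TC20 plant 9, against -0.00023 and 0.013 over all tested entries. These libraries belong to the same treatment. In TC10 plant 2 the median deviation of the wall entries was -0.018, against -0.0055 over all tested entries, so they were not raised there as a set.

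The CESA4, CESA7 and CESA8 proteins build the cellulose of secondary walls, mostly in xylem, and the 3 entries shared 1 pattern over the libraries. CESA4 had 3655 and 2576 in TC10, 3349.9, 1530.5 and 1716 in TC15, and 3257, 1715 and 1519 in TC20. CESA7 had 6579 and 3243 in TC10, 5901, 1970.2 and 2362 in TC15, and 4865, 2205 and 1566 in TC20. CESA8 had 6357 and 3208 in TC10, 4173, 1951 and 2148 in TC15, and 3677, 1881 and 1598 in TC20. Each was highest in TC10 plant 2, then TC15 plant 2, TC20 plant 3 and TC10 plant 4. Each treatment thus held at least 1 of the 4 high libraries, and the groups overlapped in TC20 against TC15 and in both pairs with TC10.

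COBL4, whose Arabidopsis namesake (IRREGULAR XYLEM6) is needed for cellulose in secondary walls, followed the same order of the 4 highest libraries, with 7843 and 2691 in TC10, 7382, 2297 and 1882 in TC15, and 3961, 1902 and 1656 in TC20. CSLD3, known in Arabidopsis for root hair growth, was the fifth wall entry with this order, with 5472 and 1634 in TC10, 1969, 1227 and 1285 in TC15, and 1856, 1189 and 1561 in TC20. These 5 of 79 entries are 6.33%, against 0.396% of all tested entries. The count was made after the CESA values had been seen, with the order taken from CESA7. CESA4, CESA7 and CESA8 are therefore in it by choice, and only COBL4 and CSLD3 add to them. The shares here and in the counts that follow include those CESA entries and are no test. In any order, the same 4 libraries were the highest for 8 wall entries (10.1%, against 1.77% of all), which adds GAUT3, GAUTC and GUN25. Without TC10 plant 2, TC15 plant 2, TC20 plant 3 and TC10 plant 4 led in that order in 6 wall entries (7.59%, against 0.937% of all), namely the 5 above and GAUT3. GAUTC, named after GAUT12 (IRREGULAR XYLEM8), an enzyme of xylan in secondary walls, had 1192 and 605 in TC10, 725, 389 and 374 in TC15, and 564, 294 and 506 in TC20.

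The summed level of xylem markers was highest in the same 4 libraries as these entries, though not every marker was. The 7 listed markers (LAC4, LAC17, IRX9, XCP1, XCP2, NAC43 and MYB46) summed to 15769.5 and 10323 in TC10, 14531, 6189 and 7489.7 in TC15, and 10841, 5844 and 8405 in TC20, so the same 4 libraries were the highest of this sum. XCP2 went against it, with 95.3 and 163 in TC10, 302, 303 and 163 in TC15, and 251, 141 and 156 in TC20, and was lowest in TC10 plant 2. MYB46 was highest in TC15 plant 2 and TC10 plant 2 and next in TC15 plant 6. They include laccases of lignin (LAC4 and LAC17), a xylan synthesis protein (IRX9) and proteases of dying vessel cells (XCP1 and XCP2). LAC4 made up the largest part of the marker sum in each library (8995 of 15769.5 in TC10 plant 2). TC20 plant 9 had the lowest summed CESA4, CESA7 and CESA8 level (4683). Its marker sum, however, lay above those of TC15 plants 6 and 10 and TC20 plant 5. The part of xylem content in the CESA4, CESA7 and CESA8 values was not tested.

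The primary-wall synthases did not follow that order. CESA1 had 4132 and 5711 in TC10, 3624, 4122 and 5229.5 in TC15, and 5419, 4684 and 3321 in TC20. CESA3 had 8315 and 6583 in TC10, 6079, 5432 and 5745 in TC15, and 5275, 3300.4 and 4582 in TC20. CESA6 had 6769 and 5547 in TC10, 3335, 3452 and 4274 in TC15, and 4398, 2657 and 5339 in TC20. CESA1 was highest in TC10 plant 4, and CESA3 and CESA6 in TC10 plant 2. Highest over lowest library was 1.72 for CESA1, 2.52 for CESA3 and 2.55 for CESA6, against 2.41 for CESA4, 4.20 for CESA7 and 3.98 for CESA8. Summed CESA4, CESA7 and CESA8 reads over summed CESA1, CESA3 and CESA6 reads came to 0.863 and 0.506 in TC10, 1.03, 0.419 and 0.408 in TC15, and 0.782, 0.545 and 0.354 in TC20. GUN25, the membrane endoglucanase KORRIGAN that works with the cellulose synthases, varied little, with 5537 and 5213 in TC10, 4830.4, 3775 and 4753 in TC15, and 5899, 4120.4 and 4759 in TC20. Its groups overlapped in TC20 against TC10, while the TC15 values lay below both TC10 values. COB22 may be no COBRA protein, and no role is given for it here. It had 3790.4 and 3020.02 in TC10, 3501, 3364 and 2736 in TC15, and 3899.6, 3441 and 3871 in TC20.

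**Figure D2:**
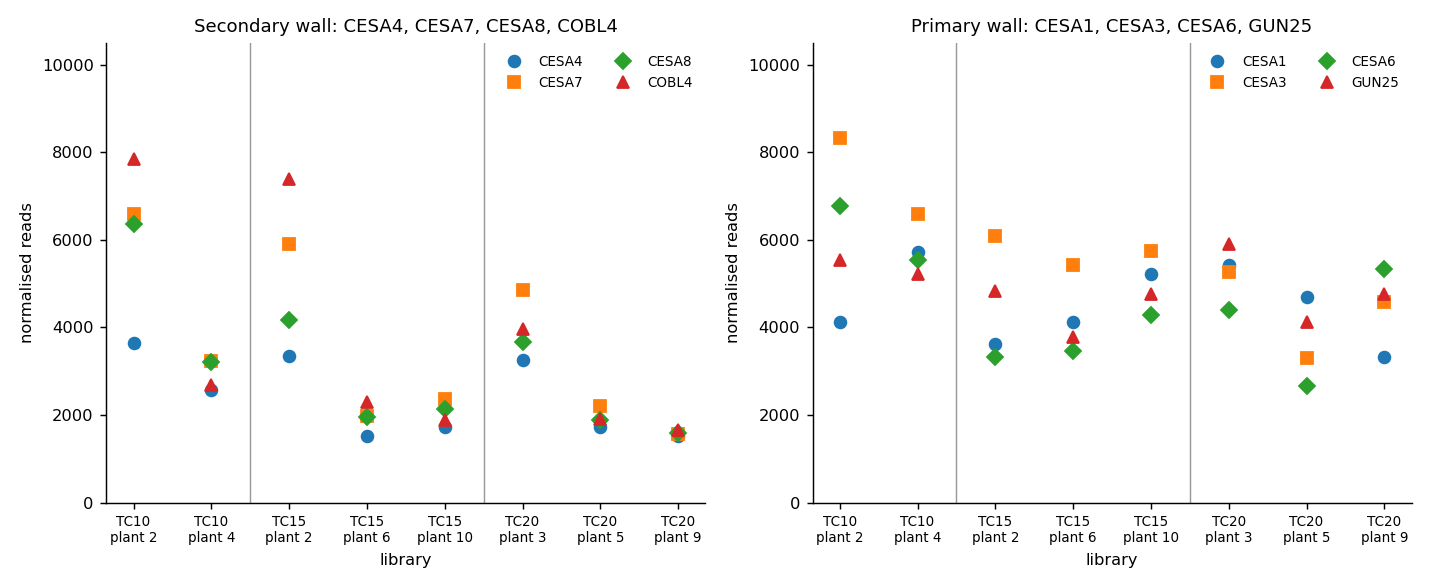
The y axis gives normalised reads from 0 in each library on the x axis, and grey lines part TC10, TC15 and TC20. On the left CESA4, CESA7, CESA8 and COBL4 are high in TC10 plant 2, TC15 plant 2 and TC20 plant 3, and on the right CESA1, CESA3, CESA6 and GUN25 have other orders of libraries, CESA1 being highest in TC10 plant 4.

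All 6 CESA entries had a negative log2 difference in TC20 against TC10 (median -0.70) and in TC15 against TC10 (median -0.59), where all tested entries had medians of 0.0015 and -0.0047. The 6 stayed negative in both pairs without TC10 plant 2 (medians -0.43 and -0.31), and 5 of 6 did in each pair without TC10 plant 4, and in TC20 against TC10 without TC20 plant 9. CESA3 had the smallest unadjusted p of the 6 in these pairs (0.0122), with 5275, 3300.4 and 4582 in TC20, against 8315 and 6583 in TC10 (log2 -0.78, SE 0.24, adjusted p = 0.918). The 3 TC20 values lay below each TC10 value and below each TC15 value. CESA6 had 3335, 3452 and 4274 in TC15, against 6769 and 5547 in TC10 (log2 -0.74, SE 0.30, adjusted p = 0.731). The TC15 values of CESA6 lay below both TC10 values, while TC20 plant 9 had 5339, near TC10 plant 4 (5547).

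COBL7, a COBRA-like protein anchored to the outer face of the membrane, had the widest range of the cellulose-related entries, with 5469 and 1094 in TC10, 933, 409 and 251 in TC15, and 577, 257 and 843 in TC20. TC10 plant 2 lay 5.00-fold above the next library, and TC10 plant 4 was the next. Neither the TC15 nor the TC20 values overlapped those of TC10. The log2 difference was -2.29 in TC20 against TC10 and -2.42 in TC15 against TC10 (limma adjusted p = 0.918 and 0.731). Without TC10 plant 2, whose removal leaves TC10 plant 4 alone, they were -1.13 and -1.26. DESeq2's likelihood ratio test over the 3 treatments gave COBL7 an adjusted p of 0.0341, and it was the single wall entry among the 35 called there (0.694% of 5046 entries with an adjusted p).

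The hemicellulose backbones are made by CSLA enzymes (mannans) and CSLC enzymes (xyloglucan). CSLA2 had 3103 and 3315 in TC10, 2666, 4310.1 and 3693 in TC15, and 5328, 2664 and 3748 in TC20, and its groups overlapped in every pair. CSLC5 and CSLCC (named after CSLC12) were both highest in TC10 plant 2: CSLCC had 3202 and 984 in TC10, 1178, 662 and 544 in TC15, and 948, 613 and 1093 in TC20. CSLC8 did not share this, with 189.6 in TC10 plant 2 and a range of 109 to 294. CSLD5, an enzyme linked in Arabidopsis to new walls at division, had 114 and 384 in TC10, 125, 306 and 98.8 in TC15, and 475, 205 and 709 in TC20, and was highest in TC20 plant 9. CSLG1 had 1851 and 5085 in TC10, 2795, 4514 and 7731 in TC15, and 7382, 5865 and 7901 in TC20, its lowest value in TC10 plant 2, and the TC20 values lay above both TC10 values. Of the 11 CSL entries, 6 had a positive log2 difference in TC20 against TC10 and 6 in TC15 against TC10. None had an unadjusted limma p under 0.05 in a treatment comparison. DESeq2 gave CSLD3 and CSLCC an unadjusted p of 0.0148 and 0.0167 across treatments (adjusted 0.355 and 0.370). It gave CSLD5 0.0315 in TC20 against TC15 (adjusted 0.580).

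Pectin backbones are made by GAUT enzymes, and these were among the steadiest wall entries. GAUT1, the homogalacturonan synthase, had 647 and 751 in TC10, 682, 704 and 628 in TC15, and 788, 708 and 769.8 in TC20, a highest value 1.25 times the lowest. GAUT7, which anchors GAUT1 in the Golgi, had 704 and 614 in TC10, 716, 602 and 481 in TC15, and 751, 609 and 711 in TC20, and GAUT4 1166 and 1440.2 in TC10, 1122, 926 and 1379 in TC15, and 1207, 1134 and 1092 in TC20. GAUT6, GAUTC and GAUTE were less even, and all of them were highest in TC10 plant 2: GAUT6 had 2283 and 745 in TC10, 1232, 799.6 and 645 in TC15, and 704, 677 and 1037 in TC20. In TC15 against TC10, 9 of 10 GAUT entries had a negative log2 difference (median -0.22, and 8 of 10 with -0.11 without TC10 plant 2). None had an unadjusted limma p under 0.05 there, while DESeq2 gave GAUTE an unadjusted p of 0.0345 (adjusted 0.412). GAUT3, GAUT9, GAUTA and GAUTB ranged at most 1.84-fold between libraries.

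Arabinogalactan proteins of the FLA family sit at the membrane and wall. FLA17 had 4516 and 728 in TC10, 1325, 946 and 419 in TC15, and 929, 407 and 1233 in TC20, and TC10 plant 2 stood 3.41-fold above the next library. FLA8 was highest in TC20 plant 9, with 1285 and 1454 in TC10, 1010.3, 884 and 987 in TC15, and 1158, 861 and 3280.04 in TC20. FLA4, known as SALT OVERLY SENSITIVE5 in Arabidopsis, where roots lacking it swell in salt, had 309.7 and 418 in TC10, 613, 392 and 387 in TC15, and 459, 494 and 492 in TC20, and the 3 TC20 values lay above both TC10 values.

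XTH enzymes cut and rejoin xyloglucan. XTH22 (TOUCH4 in Arabidopsis, a gene induced by touch) and XTH23 drew the most reads of the family, a count that also depends on transcript length. XTH22 had 22472 and 7087 in TC10, 4566, 5246 and 2989 in TC15, and 3241, 5557 and 11856 in TC20, and XTH23 58799 and 16789 in TC10, 11037, 12490.5 and 8025 in TC15, and 14996, 14384 and 23078 in TC20. In TC10 plant 2 these 2 entries held 1.79% of all normalised reads, against 0.297 to 0.843% in the other libraries, and TC20 plant 9 was the second highest for each.

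XTH24, XTH25 and XTH33 followed the same outline. XTH24 had 3774 and 2437 in TC10, 1355, 1501 and 1196 in TC15, and 1669, 1290.4 and 2739 in TC20. XTH25 had 1939.98 and 712 in TC10, 290.1, 526 and 249.7 in TC15, and 474, 497 and 845 in TC20, and XTH33 1119.6 and 344 in TC10, 72.8, 188 and 105 in TC15, and 195, 416 and 610.2 in TC20. For each of XTH22, XTH23, XTH24, XTH25 and XTH33 the 3 TC15 values lay below both TC10 values, as part of the 25.3% of wall entries and 24.7% of all entries whose groups separated in this pair. Their log2 differences in TC15 against TC10 were -1.60 (SE 0.64), -1.60 (SE 0.53), -1.17 (SE 0.33), -1.80 (SE 0.50) and -2.45 (SE 0.66), with a limma adjusted p of 0.731 each. DESeq2 called XTH23, XTH25 and XTH33 lower in TC15 than in TC10 (DESeq2 log2 -1.85, -1.91 and -2.59, DESeq2 adjusted p = 0.0492, 0.0492 and 0.0231), among 22 calls in 2555 entries with an adjusted p (0.861%). Without TC10 plant 2 the limma differences were -0.77, -0.70, -0.86, -1.08 and -1.60 in the same order.

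XTH32 differed from these in direction. It had 296 and 369 in TC10, 658, 762 and 492 in TC15, and 765, 551 and 695 in TC20, so both TC10 values lay below each of the other 6. Its log2 difference was 1.004 (SE 0.24) in TC20 against TC10 and 0.92 (SE 0.24) in TC15 against TC10, with a limma adjusted p of 0.918 and 0.731 and an unadjusted p of 0.00327 and 0.00521, and 0.85 and 0.76 without TC10 plant 2. It had the smallest unadjusted limma p of the wall entries in the test across the 3 treatments (0.00683, adjusted 0.813). XTH10 shared the layout of XTH32 at low levels, with 7.62 and 11.6 in TC10 and 16.2 to 98.8 in the other libraries.

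In TC20 against TC15, 14 of 17 XTH entries had a positive log2 difference (median 0.41, against 0.012 over all tested entries), and the count was 10 to 14 of 17 with any 1 library left out (10, with a median of 0.050, without TC20 plant 9). XTH33 had 195, 416 and 610.2 in TC20, against 72.8, 188 and 105 in TC15 (log2 1.69, SE 0.59, adjusted p = 0.79). XTH8 had 123, 90.0 and 269 in TC20, against 84.0, 57.7 and 57.3 in TC15 (log2 1.13, SE 0.42, adjusted p = 0.79), with TC20 plant 9 2.20 times the next library. XTH6 had 19.2, 22.7 and 19.5 in TC20, against 1.87, 4.91 and 12.4 in TC15 (log2 1.82, SE 0.69, adjusted p = 0.79), at few reads, where log2(value + 1) understates a difference. The groups did not overlap for any of these 3, nor for XTH23 (12.9% of all tested entries separated in this pair). In TC15 against TC10, 4 of 17 were positive (median -0.63; 5 and -0.14 without TC10 plant 4), and in TC20 against TC10 5 of 17 (median -0.53). That last pair turned with 1 library: without TC20 plant 5, 9 of 17 were positive in TC20 against TC10, with a median of 0.049.

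XTH9 set TC20 plant 5 apart from the other 7 libraries, with 7795 and 5618 in TC10, 9067, 6722 and 7096 in TC15, and 6221, 2055 and 7534 in TC20. XTH15 was also lowest there, with 709 and 2459 in TC10, 1319, 434 and 1022 in TC15, and 1313, 289 and 1700.3 in TC20. XTH30 was highest in TC10 plant 2, with 4429 and 1609.7 in TC10, 2114, 1572 and 932 in TC15, and 1112, 792 and 1737 in TC20. Of the 6 XTH entries not given by library, XTH2, XTH10, XTH16, XTH26 and XTH4 stayed under 153 normalised reads or at it, and XTH28 ranged from 589 to 1308.

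**Figure D3:**
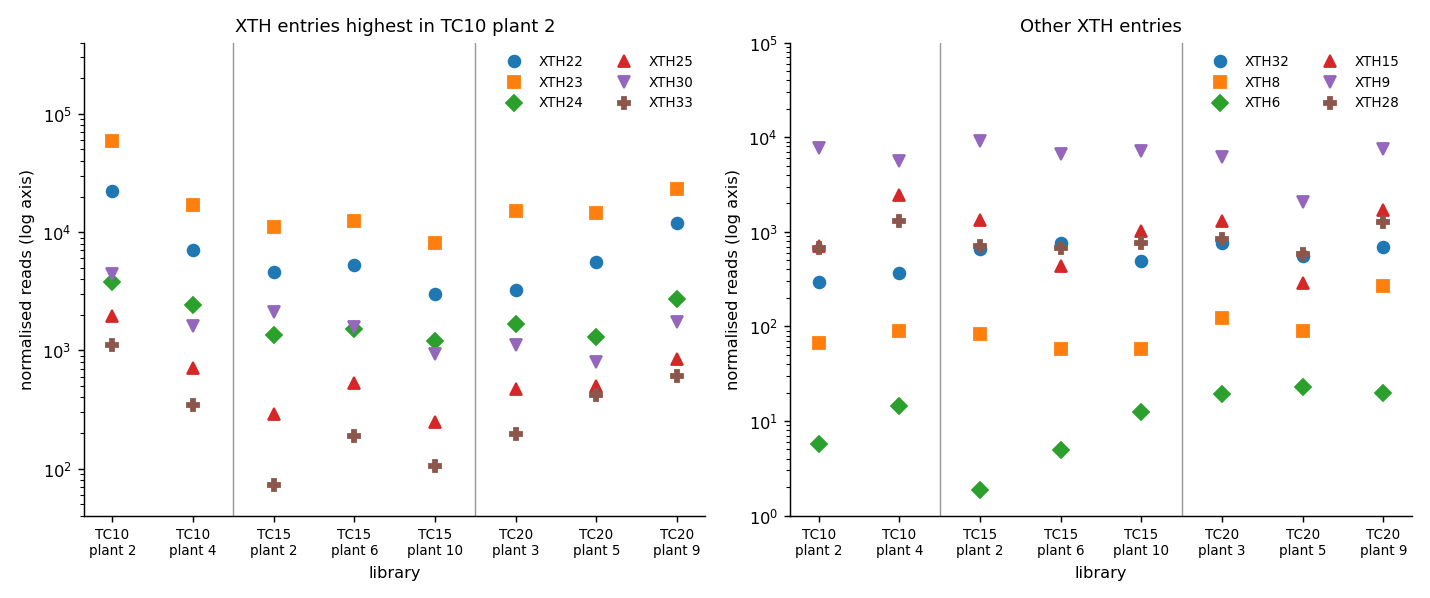
The y axis is logarithmic and gives normalised reads in each library on the x axis, with grey lines between TC10, TC15 and TC20. On the left are 6 XTH entries whose highest library is TC10 plant 2 (XTH23 reaches 58799 there), and on the right XTH32, whose TC10 values are its lowest, with 5 other XTH entries.

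Expansins loosen walls at acid pH without cutting the polymers. EXPA4 had 673 and 1705 in TC10, 3304, 2216 and 1246 in TC15, and 3108, 1798 and 3315 in TC20. EXPB3, a beta-expansin, had 21.9 and 40.5 in TC10, 104, 107 and 34.4 in TC15, and 119.6, 130.3 and 116 in TC20. EXPA8 had 8.58 and 234 in TC10, 98.0, 165 and 239 in TC15, and 209.7, 165 and 243 in TC20, so that TC10 plant 2 lay 11.4-fold below the next lowest library, at 9 recovered reads. EXPA1 and EXPA5 ranged from 20.0 to 80.2 and from 28.0 to 97.0.

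All 5 EXP entries had a positive log2 difference in TC20 against TC10 (median 1.30) and in TC15 against TC10 (median 1.10), against medians of 0.0015 and -0.0047 over all tested entries. Without TC10 plant 2, 4 of 5 were positive in each pair, and the medians were 0.16 and 0.29. EXPB3 had the smallest unadjusted p of the 5 in TC20 against TC10 (0.00573), with 119.6, 130.3 and 116 in TC20, against 21.9 and 40.5 in TC10 (log2 1.99, SE 0.53, adjusted p = 0.918; log2 1.57 without TC10 plant 2). All of its TC20 values lay above those of TC15 also. EXPA4 had 3108, 1798 and 3315 in TC20, against 673 and 1705 in TC10 (log2 1.30, SE 0.52, adjusted p = 0.918), and log2 0.63 without TC10 plant 2. In TC10 plant 2, 4 of the 5 expansins were thus at their lowest. EXPA5, the exception, was lowest in TC20 plant 5. Of the 17 XTH entries, 7 were at their highest in TC10 plant 2, XTH22, XTH23, XTH24 and XTH25 among them, and 2 at their lowest.

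Pectate lyases cleave pectin that has lost its methyl groups, and 3 of the 4 tested had the same 4 highest libraries as EXPA4. PLY15 had 274 and 1062 in TC10, 1809.8, 1149.7 and 1023 in TC15, and 1806, 935 and 1293 in TC20. PLY18 had 93.4 and 203 in TC10, 542, 463 and 121 in TC15, and 566, 167 and 442 in TC20, and PLY12 366 and 482 in TC10, 599.8, 655 and 362 in TC15, and 721, 422 and 1511 in TC20. PLY4 was steady, at 223 to 357. The endoglucanase GUN17 had 100.05 and 251 in TC10, 703, 990.004 and 239 in TC15, and 634, 289 and 1009 in TC20, and GUN6, another endoglucanase, 225 and 382 in TC10, 686, 968 and 243 in TC15, and 538, 355 and 325 in TC20.

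The 4 libraries that were highest for EXPA4, namely TC15 plants 2 and 6 and TC20 plants 3 and 9, were also the 4 highest, in any order, for EXPA1, EXPA5, GUN17, PLY12, PLY15, PLY18, PME31 and XTH32. These 9 of 79 wall entries are 11.4%, against 2.73% of all tested entries. The count was made after the expansin values had been seen and includes EXPA4 itself, so the shares are no test. The 4 plants were of 2 treatments, stood 57 to 89 cm tall and held 174 to 565 ug/g root zinc. The other 4 stood 51 to 91 cm tall and held 277 to 1075 ug/g.

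Of the remaining pectin and hemicellulose hydrolases, PME53, a pectin methylesterase, had 55.3 and 49.1 in TC10, 215, 176 and 101 in TC15, and 82.1, 60.3 and 145 in TC20. Its TC15 values lay above both TC10 values (log2 1.57, SE 0.45, adjusted p = 0.731), and above them by 1.65 on the log2 scale without TC10 plant 2. PME31 had 1017 and 1138 in TC10, 1218, 1142 and 1082 in TC15, and 1146, 1095 and 1626 in TC20, and PME47 1081 and 952 in TC10, 1069, 999.8 and 1016 in TC15, and 928, 919.7 and 671 in TC20. Both varied little, with highest over lowest of 1.60 and 1.61, though the TC20 values of PME47 lay below each TC10 and each TC15 value. PME15 and PME41 had few reads (0 to 35.5 and 0 to 20.6 normalised reads). BXL2, a beta-xylosidase, had 921, 1988 and 1337 in TC20, against 667, 601 and 934 in TC15 (log2 0.90, SE 0.35, adjusted p = 0.79), and the groups overlapped only in that TC20 plant 3 lay just below TC15 plant 10. BXL1, which trims xylan and arabinan side chains in Arabidopsis, had 909.96 and 365 in TC10, 568, 709 and 258 in TC15, and 378, 486 and 208 in TC20. GUN17 had the smallest unadjusted p of the endoglucanases in both pairs with TC10, with a log2 difference of 1.84 in TC20 against TC10 and 1.79 in TC15 against TC10 (limma adjusted p = 0.918 and 0.731). Without TC10 plant 2 they were 1.18 and 1.13. GUN2 had 1444 and 810.2 in TC10, 888, 581 and 633 in TC15, and 962, 546 and 987 in TC20.

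Among the entries not yet described, GUN24 spanned 10.9-fold, with 73.4 and 319.8 in TC10, 797, 301 and 183 in TC15, and 213, 167 and 89.0 in TC20, and was highest in TC15 plant 2. GUN16 and BXL6 were steadier, at 1.58-fold and 1.66-fold between the highest and the lowest library. CSLA9 spanned 3.79-fold, CSLE1 2.98-fold, FLA9 4.38-fold and BXL5 2.91-fold. PME22, PME34 and PME51 each spanned about the same, 4.23-fold, 4.34-fold and 4.29-fold, at 35.6 to 389.9 normalised reads, and were highest in TC20 plant 9, TC10 plant 2 and TC15 plant 10. CSLG3 spanned 10.0-fold, and it and CSLG2 were highest in TC15 plant 10, the root with the most zinc.

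**Figure D4:**
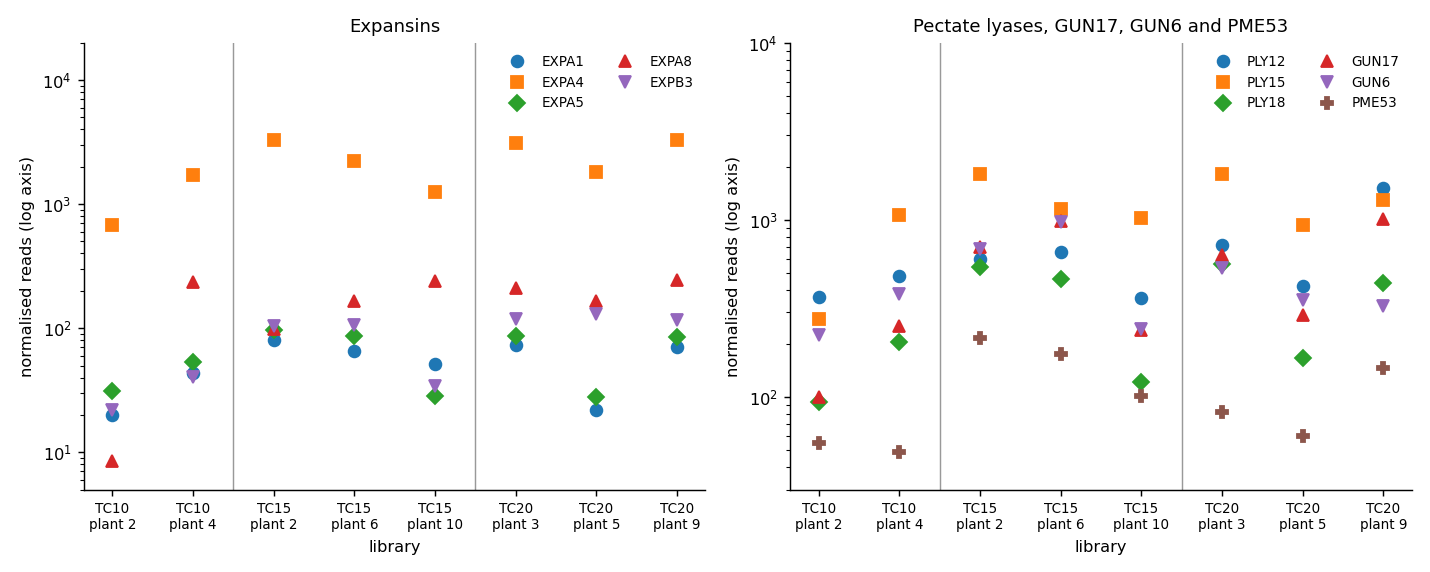
The y axis is logarithmic and gives normalised reads in each library on the x axis, with grey lines between TC10, TC15 and TC20. EXPA4, PLY15, PLY18 and GUN17 are lowest in TC10 plant 2, and EXPA5, PLY18 and GUN17 are also low in TC15 plant 10 and TC20 plant 5.

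Counted over all families, the test for a difference among the 3 treatments gave 9 of 79 wall entries with an unadjusted limma p under 0.05 (XTH32, XTH33, EXPB3, XTH25, XTH24, PME53, CESA3, COBL7 and XTH23), or 11.4%, against 5.14% of all tested entries. These p-values set differences between treatment means against the spread between single plants, with 1 spread shared by the 3 treatments. None passed after adjustment (0.0% of all did, lowest adjusted p of a wall entry 0.813). edgeR's quasi-likelihood test called 0 with 10 unadjusted, and DESeq2 called COBL7 with 16 unadjusted. Removing TC15 plant 6 gave 5 in place of 9, and removing TC15 plant 2 gave 3. Here and below, no share of all tested entries is given beside unadjusted counts from edgeR, DESeq2 or fits with a library left out. Those counts therefore say nothing about wall entries in particular.

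In TC20 against TC10, 4 entries were higher (XTH32, EXPB3, GUN17 and EXPA4) and 2 lower (CESA3 and COBL7) at an unadjusted p under 0.05, together 7.59% of 79 against 4.29% of all (1.85% higher and 2.44% lower). None passed after adjustment with limma (0.0% of all) or edgeR (9 unadjusted), and DESeq2 called 0 of them (15 unadjusted; 0.277% of all called). Of the 79, 35 had a positive log2 difference (median -0.14), and with any 1 library left out 32 to 41 did, with medians of -0.17 to 0.046 (0.046 without TC20 plant 5). The 6 were 10 once TC20 plant 5 or TC20 plant 9 was removed.

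In TC20 against TC15, XTH33, XTH8, XTH6 and BXL2 were higher at an unadjusted p under 0.05, which is 5.06% of 79 against 5.83% of all (3.04% higher and 2.79% lower), and none was lower. None passed after adjustment with limma (0.0208% of all did) or edgeR (3 unadjusted), and DESeq2 called 0 of them (6 unadjusted; 0.214% of all called). A positive log2 difference was found in 50 of 79 (median 0.087), and with any 1 library left out in 39 to 57, with medians of 0.0052 (without TC20 plant 9) to 0.27 (without TC20 plant 5). With TC20 plant 9 removed the 4 were 2, and with TC15 plant 2 removed 1.

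In TC15 against TC10, 4 entries were higher (XTH32, PME53, GUN17 and EXPB3) and 7 lower (XTH33, XTH25, XTH24, XTH23, COBL7, XTH22 and CESA6) at an unadjusted p under 0.05, together 13.9% of 79 against 6.62% of all (2.71% higher and 3.92% lower). A positive log2 difference was found in 29 of 79 (median -0.20), in 37 without TC10 plant 4 (median -0.049) and in 32 without TC10 plant 2 (median -0.14). None passed after adjustment with limma (0.0% of all; edgeR 0 with 15 unadjusted), and DESeq2 called the 3 XTH entries given above. Removing either TC10 plant leaves a lone TC10 library, which is assumed to vary as much as the TC15 and TC20 libraries.

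Height was recorded for each plant, and the wall entries were set against it. No entry passed with limma (0.0% of all), edgeR (5 unadjusted) or DESeq2 (9 unadjusted; 0.0775% of all called). An unadjusted limma p under 0.05 was found for 3 of 79 (3.80%, against 4.71% of all, of which 1.81% with a positive and 2.90% with a negative slope), all with lower values in taller plants. These were FLA2, CESA6 and XTH24, and the 3 became 4 to 6 with any 1 library left out (6 when that was TC10 plant 4 or TC15 plant 6, 5 when it was TC15 plant 2, TC20 plant 5 or TC20 plant 9). From the shortest plant (51 cm) to the tallest (91 cm), FLA2 had 351, 367, 343, 389, 427, 286, 163 and 181 normalised reads. The 3 plants of at least 82 cm lay below the other 5. Its slope was -0.27 per 10 cm on the log2 scale (SE 0.08, limma adjusted p = 0.872), and within treatments it was -0.35, SE 0.10, adjusted p = 0.532.

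In the same order of height, CESA6 had 5547, 5339, 6769, 3452, 4274, 4398, 3335 and 2657 normalised reads, with a slope of -0.22 per 10 cm (SE 0.07), and -0.16, SE 0.09, adjusted p = 0.671 within treatments. XTH24 had 2437, 2739, 3774, 1501, 1196, 1669, 1355 and 1290.4, with a slope of -0.28 (SE 0.10), and -0.18, SE 0.10, adjusted p = 0.658 within treatments. For both the 3 shortest plants, of TC10 and TC20, held the highest values, while among the 5 taller plants both were highest in the one of 82 cm.

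The XTH family as a whole had mostly negative slopes on height: 15 of 17 were below 0, with a median of -0.23 per 10 cm, against -0.0034 over all tested entries, and 15 of 17 were below 0 within treatments (median -0.20). XTH4 and XTH32 had positive slopes, and that of XTH10 was near 0 (-0.0021). The count below 0 was 14 of 17 with TMM scaling. With any 1 library left out it was 12 (without TC20 plant 9) to 15 of 17, with medians of -0.26 to -0.13 (-0.13 without TC10 plant 2). The slopes of the EXP entries were positive in 4 of 5 (median 0.14), but in 1 of 5 within treatments (median -0.19) and in 2 of 5 without TC10 plant 2 (median -0.080). Within treatments 6 of 79 wall entries had an unadjusted p under 0.05 (8.12% of all tested entries did), and none passed. Of these, PME41, CSLD5, PME22, FLA2 and FLA8 had negative slopes and CESA7 a positive one (0.41, SE 0.16, adjusted p = 0.58), and the slope of CESA7 over all 8 plants was 0.11.

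**Figure D5:**
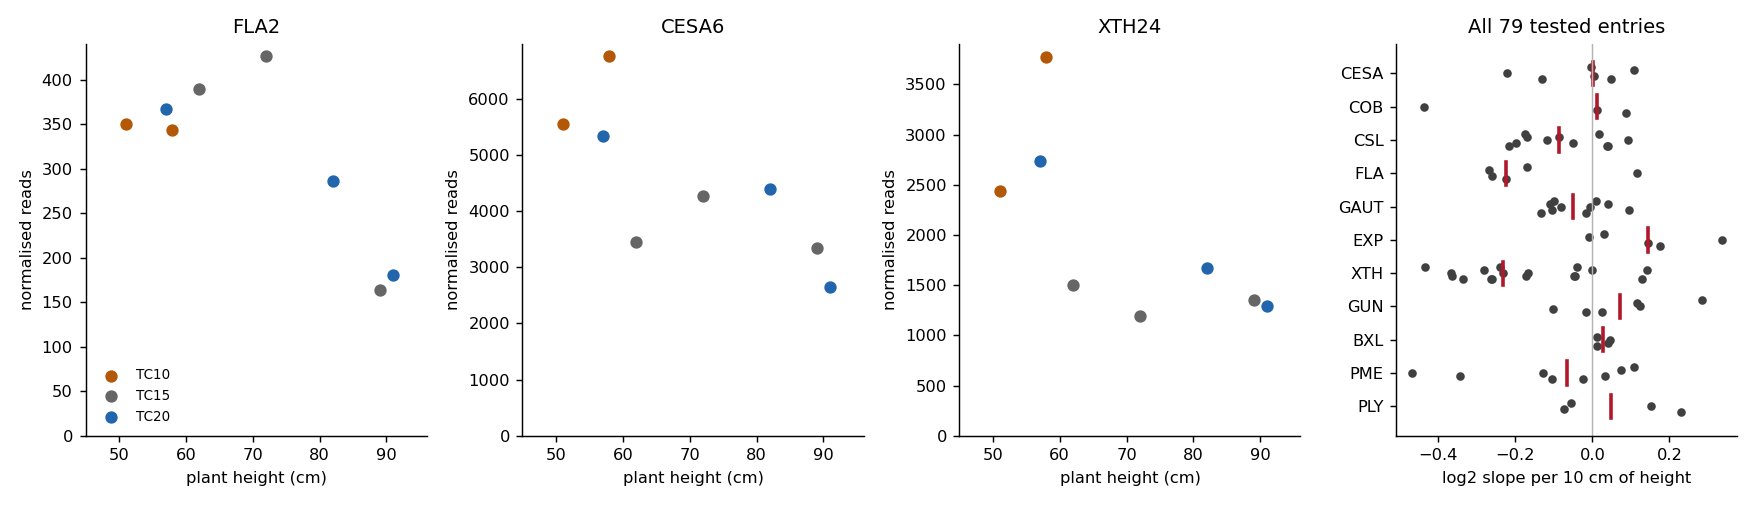
The first 3 panels give normalised reads (y axis, from 0) of FLA2, CESA6 and XTH24 against plant height in cm (x axis), 1 point per plant, coloured by treatment. The last panel gives the log2 slope per 10 cm of each of the 79 tested wall entries by family, with the family median in red, and 15 of 17 XTH points lie below 0.

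Root zinc, which the series title names, gave 7 of 79 wall entries with an unadjusted p under 0.05 (XTH8, PLY12, EXPB3, PME15, GAUT7, COB22 and CSLD5), all with lower values at higher zinc, or 8.86% against 4.25% of all tested entries (1.87% with a positive and 2.37% with a negative slope). None passed with limma (0.0% of all; lowest adjusted p of a wall entry 0.918), edgeR (7 unadjusted) or DESeq2 (8 unadjusted; 0.116% of all called). The slope was negative in 57 of 79, with a median of -0.11 per doubling of zinc, against 0.00016 over all. With any 1 library left out it was negative in 46 to 63, with medians of -0.15 to -0.051 (46 of 78 and -0.051 without TC20 plant 9). The 3 TC20 roots held the least zinc, so zinc and treatment cannot be fully told apart. EXPB3, from the TC20 root with the least zinc to the TC15 root with the most, had 116, 119.6, 130.3, 104, 21.9, 107, 40.5 and 34.4 normalised reads (slope per doubling of zinc log2 -0.79, SE 0.29, adjusted p = 0.918), and PLY12 1511, 721, 422, 599.8, 366, 655, 482 and 362 (log2 -0.55, SE 0.19, adjusted p = 0.918). Within treatments 13 of 79 had an unadjusted p under 0.05 (12.3% of all did) and 60 of 79 a negative slope (median -0.41, against 0.0061 over all), and none passed. Among the 13, XTH30 had a slope of -1.06, SE 0.30, adjusted p = 0.267 within treatments, against 0.03 over all 8 plants. COBL7 had -1.64, SE 0.46, adjusted p = 0.268 within treatments, against -0.10 over all 8, and CSLG2 had 1.06, SE 0.35, adjusted p = 0.306 within treatments, against 0.34 over all 8. The 7 became 1 without TC15 plant 10, the root with the most zinc, 2 without TC20 plant 3 and 4 without TC10 plant 4 or TC20 plant 9.

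Other genes of wall building were taken as a list of names: nucleotide sugar synthesis, xylan and xyloglucan side-chain enzymes, TBL proteins that acetylate wall polymers, beta-galactosidases and polygalacturonases. Of 58 listed, 52 were tested and none passed in any comparison (lowest limma adjusted p 0.731). Across treatments 3 had an unadjusted p under 0.05 (5.77%, against 5.14% of all). WAT1, a vacuolar auxin transporter that secondary walls need in Arabidopsis, had 4363 and 4497 in TC10, 6758, 7323 and 5983 in TC15, and 7673, 5913 and 6027 in TC20, both TC10 values below each of the others (log2 0.55, SE 0.20, adjusted p = 0.918 in TC20 against TC10). TBL2 had 172, 191 and 314 in TC20, against 71.8, 111 and 117 in TC15 (log2 1.15, SE 0.30, adjusted p = 0.79). In TC15 against TC10, 40 of 52 had a negative log2 difference (median -0.28), and 30 of 51 without TC10 plant 2 (median -0.062). On height 26 of 52 slopes were positive and 26 negative.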

How the data were processed

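RNA was extracted from roots with the RNeasy Plant mini kit and made into stranded total-RNA libraries (TruSeq), per the labels' protocols. FastQC, Trim Galore, kallisto and DESeq2 are named, without versions, in the submitters' processing notes. The sources used here give neither the reference transcripts nor a genome build. The authors deposited 1 table of signal per library, read counts divided by a factor per library, with entries named after Arabidopsis proteins. Dividing each value by the library's smallest step gave whole reads within 0.001 for 100% of values, and these recovered reads were used only for depth, edgeR and DESeq2. Each library held 3030394 to 4752637 of them. Low entries therefore carry more counting error than high ones, and the errors given are those between plants.

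Entries that reached 10 normalised reads in 2 or more of the 8 libraries were tested with limma 3.58.1 (empirical Bayes with trend) on log2(value + 1), fitted over all 4801 such entries with 1 spread shared by the 3 treatments, and p-values were adjusted by Benjamini-Hochberg over all of them. Fits were an F test over treatments, 3 pairs, a slope per 10 cm of height and a slope per doubling of zinc in the root. Fold differences on this scale understate those of low entries. Alternatives were a pseudocount of 0.1, no filter, a filter of 50 in 4 libraries, TMM scaling, edgeR 4.0.16, DESeq2 1.42.0, limma-voom, treatment as a covariate, ranks of height, and each library left out. The limma and edgeR fits were run on simulated data for TC20 against TC15 and for height only, and the outcome is not given here. Values by library are given for entries with an unadjusted p under 0.05 across treatments, in a pair or on height, for the 2 of each family with the largest mean, for 6 CESA entries and for COBL7; others were named after their values were seen. The members and lists were chosen with earlier results of these data known. The labels number the plants, and nothing says that plants were pooled. No sequences were used.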

Additional observations from a re-analysis of the deposited data

How the results depend on the processing

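With limma, no wall entry passed an adjusted p of 0.05 in any of the 6 comparisons under any pseudocount, filter, scaling or left-out library, nor did one with edgeR or limma-voom. DESeq2 called 1 across the 3 treatments and 3 in TC15 against TC10, and it was not refitted with a library left out. The counts at an unadjusted p under 0.05 moved by more than 1.5 times as follows. With DESeq2 they were 16 across treatments (9 with limma), 15 in TC20 against TC10 (6) and 9 on height (3). On height edgeR gave 5, treatment as a covariate 6 and ranks of height 6, and on zinc treatment as a covariate gave 13 (7 without it). With 1 library left out the counts ranged from 2 to 20 across treatments, 3 to 24 in TC20 against TC10, 1 to 7 in TC20 against TC15, 3 to 25 in TC15 against TC10, 4 to 6 on height and 1 to 10 on zinc. The cause was not tested, except that fewer libraries were fitted. None of the log2 values of entries with an unadjusted p under 0.05 in a pair or on height changed sign in that comparison, while 1 more XTH slope on height was positive with TMM scaling than without it. Leaving out TC10 plant 2 in the counts of direction and of highest libraries was chosen after seeing the data. No paired analysis was possible because no pair of treatments shares more than 1 plant number among the 8 libraries, and the labels do not say that a number marks a shared origin. With 2 or 3 plants per treatment and few reads for entries such as XTH6 and PME15, differences smaller than the spread between plants were not detectable.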

Other observations

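Apart from TBL2, the wall building entries outside the 88 with an unadjusted limma p under 0.05 in TC20 against TC15 were TBL18, TBL22 and BGAL5, all higher in TC20, and none passed after adjustment. The normalised reads of TBL18 were 555, 532 and 615 in TC20, against 347, 432 and 466 in TC15 (log2 0.46, SE 0.16, adjusted p = 0.79), and those of TBL22 23.3, 31.5 and 63.0 in TC20, against 16.8, 11.1 and 18.5 in TC15 (log2 1.20, SE 0.46, adjusted p = 0.79). TBL proteins are a family that includes acetyltransferases of wall polymers. On height, ASD2, an arabinofuranosidase, had 91.5, 85.8, 159, 109, 41.5, 69.9, 44.8 and 41.1 normalised reads from the shortest plant to the tallest, and SUS6, a sucrose synthase, 97.3, 109, 62.9, 86.0, 96.2, 55.7, 14.9 and 58.6. In both, the 3 plants of at least 82 cm lay below the 3 shortest (slopes per 10 cm of log2 -0.35, SE 0.11, adjusted p = 0.872 and log2 -0.39, SE 0.15, adjusted p = 0.872, by limma).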
